A study of Mus musculus with 3 samples.

Results

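Signalling by Wnt proteins in the mouse utero-tubular junction was followed through 45 genes for its ligands, receptors, antagonists and feedback targets. Members were the array probes, other than controls, whose gene name was a numbered Wnt, Fzd, Sfrp or Dkk gene, or 1 of Wif1, Frzb, Axin2, Lef1, Tcf7, Lrp5, Lrp6 and Lgr5. This gave 61 of 41174 probes and 45 of 27673 gene names. The members are 19 ligands, 10 Frizzled receptors, 3 co-receptors or R-spondin receptors, 10 secreted antagonists and 3 feedback or nuclear genes. At least 1 probe was well above background, by the scanner software's own test, on at least 1 array for 39 members. Dkk1, Dkk4, Wnt10b, Wnt3a, Wnt8a and Wnt8b were not well above background on any array.

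The utero-tubular junction joins each uterine horn to its oviduct, and sperm must pass it to reach the egg. The study compared adult CD-1 females in estrus that had mated with a normal male, had mated with a vasectomized male, or had not mated. Vasectomy keeps sperm, but not the seminal fluid, out of the ejaculate. Each group was 1 pool of tissue RNA from 10 females on 1 single-colour array, so there is no spread between animals or arrays, and no test, standard error or p-value is given. How long after mating the tissue was taken is not given in the labels used. All 3 groups share strain, sex and cycle stage, and no genetic alteration is named for any of them.

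Wnt ligands are secreted lipid-modified proteins that bind Frizzled receptors together with Lrp5 or Lrp6. In the beta-catenin branch this stops the destruction of beta-catenin, which then acts with the nuclear factors Lef1 and Tcf7 on genes such as Axin2, itself part of the destruction complex. Secreted antagonists bind the ligand (the Sfrp family, Frzb and Wif1) or the co-receptor (Dkk1 and its relatives), and in the mouse the pathway patterns the female tract and forms the uterine glands.

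Values are scaled signals, with the 75th percentile of each array set to 100. They can be compared between arrays for 1 probe, not between genes. A difference of 2-fold was counted as higher or lower, and where only 1 of the arrays compared was well above background the fold is a bound, written "at least". Replicate spots of a probe had a median SD between 0.0541 and 0.0644 on the log2 scale, which covers hybridisation and scanning only. The unscaled 75th percentiles were 708 (normal-mated), 295 (vasectomized-mated) and 874 (not mated). The vasectomized-mated array stood apart, and its spike-in slope of 0.838 lay outside the range the software accepts. Aligning the arrays on their spike-in controls instead shifted the median log2 ratio of all genes to -0.56 (normal-mated versus not mated), -2.66 (vasectomized-mated versus not mated) and 2.01 (normal-mated versus vasectomized-mated). The same medians were -0.03, 0.16 and -0.20 with the percentile scaling, so each higher or lower value below is relative to the rest of its own array.

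Ratios to that array also differed with the position of the probe. Among 5620 genes with several probes well above background on all 3 arrays, the outermost probes were over 2-fold apart in 44.5% for vasectomized-mated versus not mated, and in 7.65% for normal-mated versus not mated. The probe nearer the 3' end gave the higher ratio in 59.7% of genes for the vasectomized-mated array, with a median difference of 0.23 on the log2 scale, and in 51.0%, with a median of 0.01, for the normal-mated array. Of the 6 members with such probes, Fzd10, Fzd2, Fzd7 and Wnt5b were higher at the 3' probe by over 2-fold on the vasectomized-mated array, whereas Lef1 and Wnt6 were not. The part of probe position in the results that rest on the vasectomized-mated array was not tested for members with 1 probe.

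**Figure D1:**
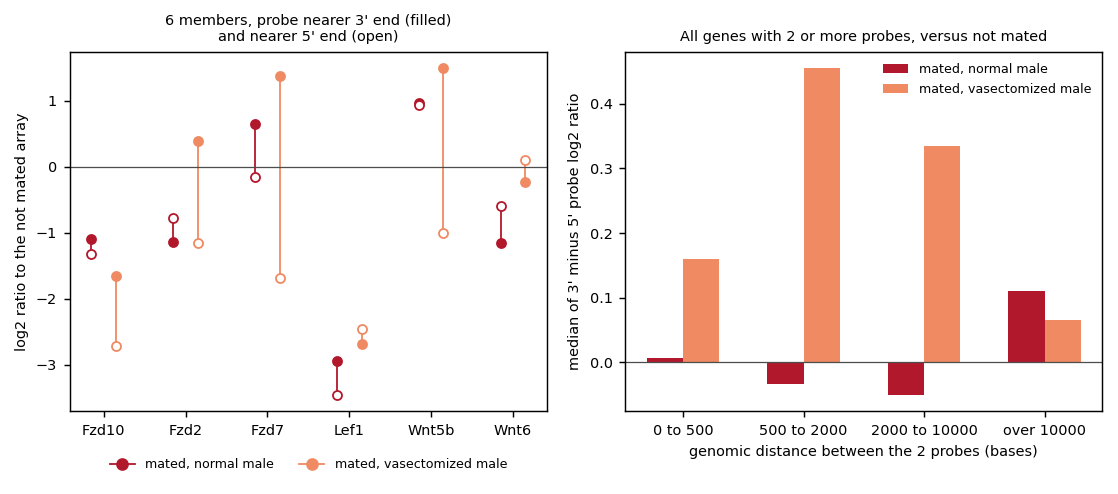
Left, log2 ratio to the not mated array (vertical axis) at the outermost probes of 6 members, filled for the probe nearer the 3' end and open for the other, in dark red for the normal-mated and in orange for the vasectomized-mated array. Right, for all genes with several probes, the median difference of the 3' probe from the 5' probe (log2, vertical axis) by genomic distance between them (bases, horizontal axis); Fzd2, Fzd7, Wnt5b and, by a small amount, Wnt6 change sign between their probes in the vasectomized-mated array, and the median reaches 0.45 at 500 to 2000 bases there.

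Markers of the tissue were present on every array: all 8 epithelial, all 6 oviduct epithelial, all 9 stromal and all 7 smooth muscle markers were well above background. The lists differed between the pools. A sum over a list adds different probes and is weighted to its brightest ones, so counts of markers are given with it. The summed scaled signal of the stromal markers was 21851 on the normal-mated and 67972 on the vasectomized-mated array, against 32332 on the not mated array, with 5 of 9 lower and none higher on the normal-mated array, and 3 higher and none lower on the vasectomized-mated array. That of the epithelial markers was 73742 (normal-mated) and 31397 (vasectomized-mated), against 44706 (not mated), with 4 of 8 higher and none lower on the normal-mated array, and 1 higher and 3 lower on the vasectomized-mated array. All 6 endothelial markers were lower on the normal-mated array. On the vasectomized-mated array 4 of them, Pecam1, Tek, Tie1 and Vwf, were lower and 1, Cdh5, was higher. Their sum was 330 (normal-mated) and 1652 (vasectomized-mated), against 1044 (not mated). On the vasectomized-mated array it rests on Cdh5, which alone had 1254 there, 106 on the normal-mated and 231 on the not mated array. On the normal-mated and not mated arrays Vwf was the largest part, with 131 (normal-mated) and 486 (not mated). In whole tissue, fewer cells of a type and less RNA per cell cannot be told apart. The part of these shifts in the members' values was not tested.

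**Figure D2:**
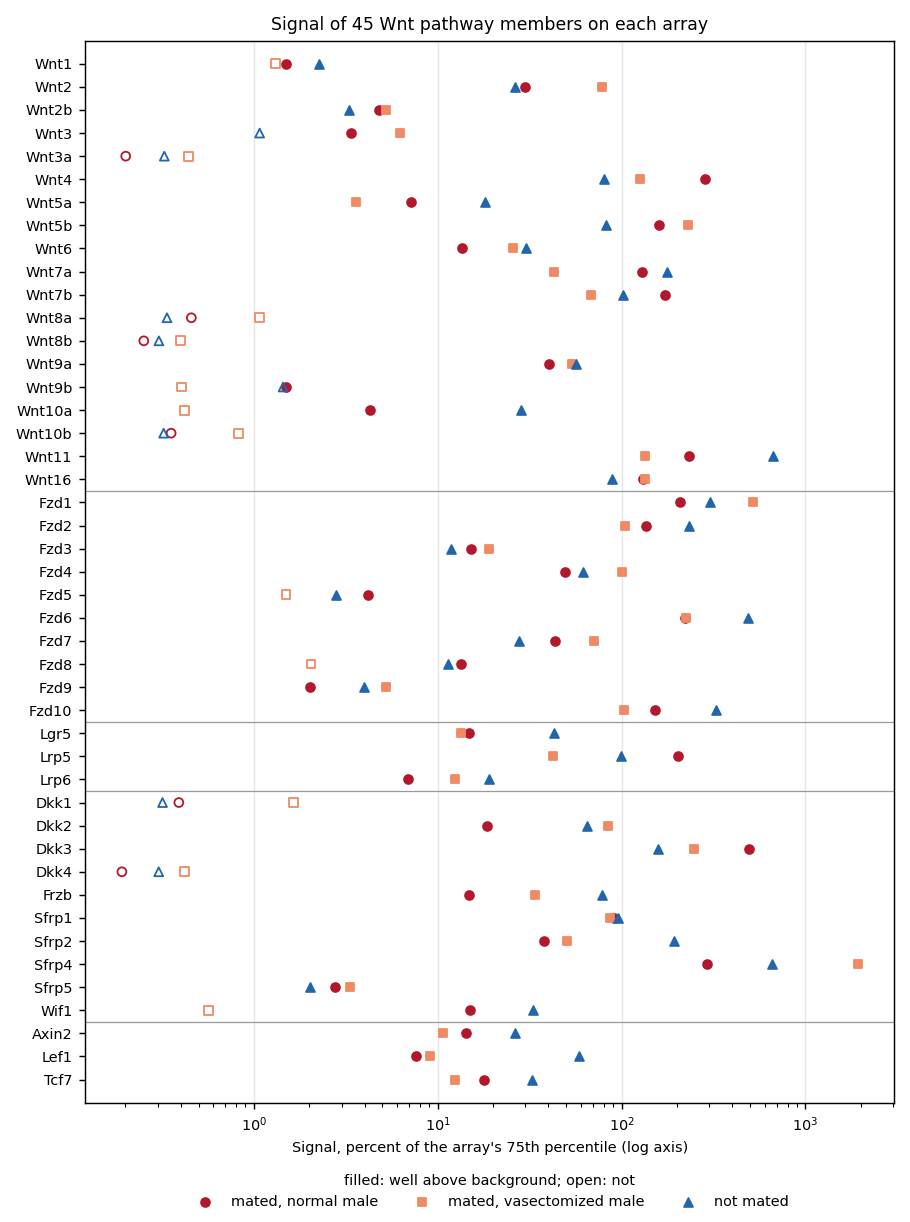
Scaled signal (percent of the array's 75th percentile, log axis) of the members by role, with 1 point each for the normal-mated (circles), vasectomized-mated (squares) and not mated array (triangles); open symbols are not well above background. Lef1 lies lower on both mated arrays, and Wnt4 and Dkk3 lie higher on them.

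Against the not mated array, the normal-mated array had more members lower than higher. Of 39 members compared, 4 were at least 2-fold higher (10.3%) and 14 were at least 2-fold lower (35.9%), and the median log2 ratio was -0.55, with bounds taken at their limit. Among all 19833 genes compared, 9.55% were higher and 12.8% lower, with a median of -0.03. The members' median stayed below 0 under each other scaling, between -0.37 and -0.65 without the spike-in scaling. Dkk3 and Wnt4 of the 4 higher members, and 10 of the 14 lower ones, passed 2-fold under all 4 scalings other than the spike-in one. Lrp5 and Wnt3 among the higher, and Lrp6, Wif1, Wnt5a and Wnt6 among the lower, did not.

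The vasectomized-mated array showed 5 members higher (13.2%) and 16 lower (42.1%) of 38 compared with the not mated array, with a median log2 ratio of -0.37. Of all 19532 genes, 25.5% were higher and 16.3% lower, with a median of 0.16. The members' median was 0.00 with normexp background correction, which models the background in place of subtracting it, and which left 8 of the 16 lower members past 2-fold: Fzd10, Fzd2, Fzd6, Lef1, Sfrp2, Wnt10a, Wnt11 and Wnt7a. All 5 higher members, Fzd7, Sfrp4, Wnt2, Wnt3 and Wnt5b, passed under the 4 scalings other than the spike-in one, under which none of them did. This comparison shares the not mated array with the previous one, so the pair are not independent.

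Between the mated arrays, 39 members were compared. On the normal-mated array 8 were higher (20.5%) and 7 lower (17.9%) than on the vasectomized-mated array, with a median log2 ratio of -0.03. Over 19846 genes, 14.1% were higher and 26.8% lower, with a median of -0.20. The members' median took either sign across the scalings, from -0.37 to 0.08 without the spike-in one. Of the higher members Lrp5, Wnt4, Wnt7a and Wnt7b, and of the lower ones all but Fzd4, passed 2-fold under the 4 scalings other than spike-in. Under spike-in scaling 34 members were higher and none lower. That scaling moved the median of all genes up as well, as given above, so this count does not set the members apart.

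**Figure D3:**
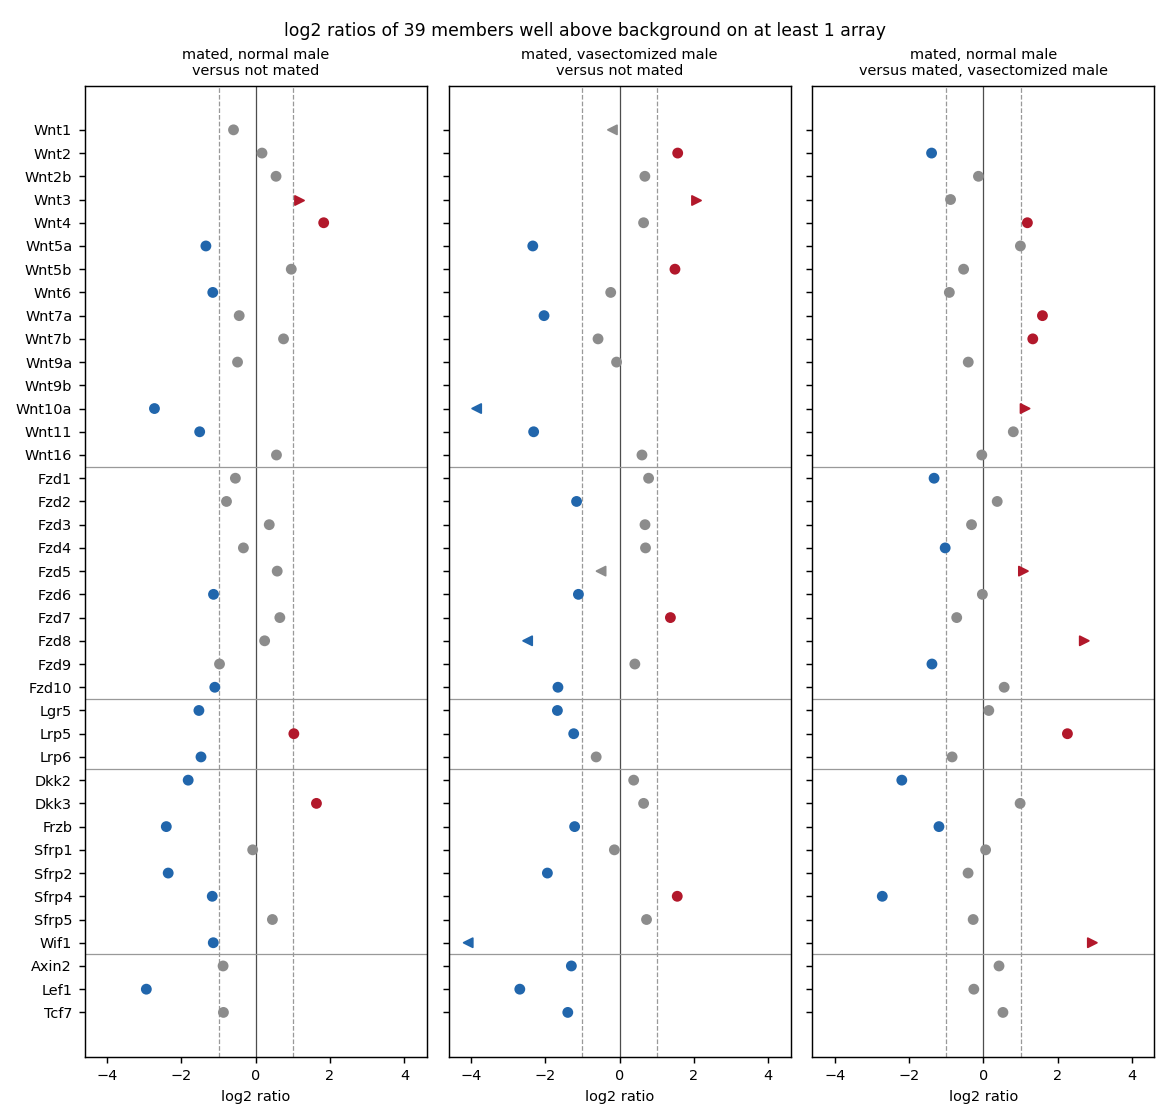
Log2 ratio (horizontal axis) of each member in the 3 comparisons, with triangles for bounds, dashed lines at 2-fold, and red or blue for members at least 2-fold higher or lower. Wnt9b has no symbol, because no ratio or bound could be given for it; Lef1, Sfrp2, Wnt10a and Wnt11 lie past 2-fold lower on both mated arrays versus the not mated array.

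Among the ligands, 15 could be compared between the normal-mated and the not mated array, of which 2 were higher and 4 lower (13.3% and 26.7%, beside 9.55% and 12.8% of all genes). Of 14 compared between the vasectomized-mated and the not mated array, 3 were higher and 4 lower (21.4% and 28.6%, beside 25.5% and 16.3%). The shares of higher ligands were thus near those of all genes. Wnt4, which in the mouse uterus acts in stromal decidualisation, had a scaled signal of 285 on the normal-mated and 126 on the vasectomized-mated array, against 80.3 on the not mated array. It was 3.55-fold higher on the normal-mated and 1.56-fold higher on the vasectomized-mated than on the not mated array, and 2.27-fold higher on the normal-mated than on the vasectomized-mated array. Wnt11, a ligand known for beta-catenin-independent signalling in cell movement, had 233 (normal-mated) and 134 (vasectomized-mated), against 664 (not mated), which is 2.85-fold (normal-mated) and 4.97-fold (vasectomized-mated) lower. With the percentile scaling the 2 ligands thus lay on opposite sides of the not mated array in both mated pools. For Wnt4 the difference passed 2-fold on the normal-mated array alone. Under spike-in scaling no ligand was higher on the vasectomized-mated than on the not mated array. Their probes lie at chr4:136674216-136674784 for Wnt4 and at chr7:94885377-94885437 for Wnt11 in the array's mm7 annotation. Whether these positions are in an exon or a UTR is not given here.

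The promoter windows of these ligands, which lay on opposite sides of the not mated array with the percentile scaling, are shown next. They span 300 bases that lie mostly upstream of the start, are from RefSeq (GRCm38.p6), and are read 5' to 3' on the gene's own strand. Wnt4 is at chr4:137277385-137277684 on the plus strand, and Wnt11, by the more upstream of its 2 windows, at chr7:98834862-98835161 on the plus strand. Capitals mark CTTTGA or CTTTGT on either strand, a core of the TCF/LEF motif.
Wnt4: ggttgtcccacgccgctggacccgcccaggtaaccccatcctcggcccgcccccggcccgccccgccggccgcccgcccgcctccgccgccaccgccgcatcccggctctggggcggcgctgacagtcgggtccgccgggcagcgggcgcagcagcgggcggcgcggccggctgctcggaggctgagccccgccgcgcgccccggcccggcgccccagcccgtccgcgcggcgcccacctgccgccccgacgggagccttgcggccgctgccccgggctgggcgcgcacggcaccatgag
Wnt11: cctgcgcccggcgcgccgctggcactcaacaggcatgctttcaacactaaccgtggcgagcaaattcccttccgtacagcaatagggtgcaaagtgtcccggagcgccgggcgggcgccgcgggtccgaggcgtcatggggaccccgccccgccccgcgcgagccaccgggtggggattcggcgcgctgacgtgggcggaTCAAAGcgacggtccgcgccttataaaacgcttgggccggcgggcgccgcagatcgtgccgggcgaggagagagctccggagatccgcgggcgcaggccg
The Wnt11 window shown held 1 match, while its other window, at chr7:98838595-98838894, and the Wnt4 window held none. Of the 30 member genes found in the promoter table, 10 had a match in at least 1 window. By window it was 10 of 37 (27.0%), while 31.2% of all 32851 windows of this length held 1, so the members' share was near that of promoters at large. A match describes letters in a window and is no evidence of binding.

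Wnt10a and Wnt5a were the other ligands at least 2-fold lower on both mated arrays. Wnt10a, a beta-catenin ligand of skin and tooth, had 4.28 on the normal-mated array, against 28.3 on the not mated array, and on the vasectomized-mated array it was not well above background. It was 6.61-fold lower on the normal-mated and at least 14.4-fold lower on the vasectomized-mated array. Wnt5a, a beta-catenin-independent ligand of the uterine mesenchyme, had 7.16 (normal-mated) and 3.60 (vasectomized-mated), against 18.2 (not mated), or 2.53-fold (normal-mated) and 5.05-fold (vasectomized-mated) lower. With normexp correction neither Wnt5a difference passed 2-fold. Between the mated arrays, Wnt10a was at least 2.17-fold and Wnt5a 1.99-fold higher on the normal-mated than on the vasectomized-mated array. This Wnt10a bound did not pass 2-fold with normexp correction.

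Wnt7a and Wnt6 differed from the not mated array by 2-fold in 1 mated pool, and Wnt7b in neither. Wnt7a, made by the luminal epithelium of the mouse uterus, had 130 on the normal-mated and 43.2 on the vasectomized-mated array, against 177 on the not mated array. It was 1.36-fold (normal-mated) and 4.09-fold (vasectomized-mated) lower, and 3.01-fold higher on the normal-mated than on the vasectomized-mated array. Wnt7b, its close relative, had 172 (normal-mated) and 68.4 (vasectomized-mated), against 102 (not mated). It was 2.51-fold higher on the normal-mated than on the vasectomized-mated array. Both Wnt7 genes were thus lowest on the vasectomized-mated array. The summed epithelial markers were lowest there too, with 1 of 8 higher and 3 lower than on the not mated array. The part of the epithelium in the Wnt7 values was not tested. Wnt6, an epithelial ligand, had 13.6 (normal-mated) and 25.7 (vasectomized-mated), against 30.3 (not mated), and was 2.23-fold lower on the normal-mated array. A further Wnt6 probe read 13.2 (normal-mated) and 21.3 (vasectomized-mated), against 20.0 (not mated), a 1.51-fold difference there.

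The mesenchymal ligand Wnt2 had 29.7 on the normal-mated and 78.1 on the vasectomized-mated array, against 26.4 on the not mated array. It was 2.96-fold higher after mating with vasectomized males, and 2.63-fold lower on the normal-mated than on the vasectomized-mated array. Wnt5b had 159 (normal-mated) and 230 (vasectomized-mated), against 82.0 (not mated), at the probe nearer its 3' end (chr6:119458136-119458195, mm7), or 1.94-fold (normal-mated) and 2.81-fold (vasectomized-mated) higher. Its 5' probe, at chr6:119465444-119465503, had 20.0 (normal-mated) and 5.19 (vasectomized-mated), against 10.4 (not mated), so that it was 2.01-fold lower on the vasectomized-mated array. The Wnt5b result after mating with vasectomized males therefore had opposite signs at its probes, while on the normal-mated array both read alike. Wnt3, a beta-catenin ligand, had 3.39 (normal-mated) and 6.26 (vasectomized-mated), and in not mated females it was not well above background. It was at least 2.24-fold higher on the normal-mated and at least 4.13-fold higher on the vasectomized-mated array. Its values lie close to the lowest signal called well above background, which was 1.52 on the not mated array.

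The remaining ligands differed by under 2-fold wherever they could be compared. Wnt16 had 130 (normal-mated) and 135 (vasectomized-mated), against 88.7 (not mated). Wnt2b had 4.78 (normal-mated) and 5.25 (vasectomized-mated), against 3.27 (not mated). Wnt9a had 40.5 (normal-mated) and 53.7 (vasectomized-mated), against 56.9 (not mated). None of these 3 moved by more than 0.68 on the log2 scale. Wnt1, which was printed on 10 spots, had 1.49 on the normal-mated array, against 2.25 on the not mated array, and on the vasectomized-mated array it was not well above background. Its log2 values were -6.07 ± 0.51 on the normal-mated array (SD, 10 spots) and -5.47 ± 0.17 on the not mated array (SD, 9 spots). The difference between these means, -0.60, was close to the SD of single spots on the normal-mated array. It was larger than that on the not mated array. Wnt9b was well above background on the normal-mated array alone, too close to the limit for a bound.

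Of the 10 Frizzled receptors, which bind Wnt ligands at the cell surface, none was higher and 2 were lower on the normal-mated than on the not mated array (20.0% lower, beside 12.8% of all genes). Fzd6 had 221 on the normal-mated and 225 on the vasectomized-mated array, against 486 on the not mated array, or 2.20-fold (normal-mated) and 2.16-fold (vasectomized-mated) lower. Fzd10 had 151 (normal-mated) and 103 (vasectomized-mated), against 325 (not mated), and was 2.15-fold (normal-mated) and 3.16-fold (vasectomized-mated) lower. Its 5' probe had 17.0 (normal-mated) and 6.42 (vasectomized-mated), against 42.3 (not mated), which is lower on both mated arrays as well. Fzd6, linked to planar cell polarity, and Fzd10, a receptor of the beta-catenin branch, were thus the receptors lower on both.

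The vasectomized-mated array had 1 receptor higher and 4 lower than the not mated array (10.0% and 40.0%, beside 25.5% and 16.3% of all genes). Fzd7 had 43.3 on the normal-mated and 71.3 on the vasectomized-mated array, against 27.6 on the not mated array (chr1:59737506-59737565, mm7), or 1.57-fold (normal-mated) and 2.58-fold (vasectomized-mated) higher. Its 5' probe (chr1:59735681-59735740) had 6.74 (normal-mated) and 2.33 (vasectomized-mated), against 7.53 (not mated), and was 3.24-fold lower on the vasectomized-mated array. Fzd2 showed the same split. It had 135 (normal-mated) and 105 (vasectomized-mated), against 233 (not mated), at its 5' probe (chr11:102715340-102715399), which is 2.23-fold lower on the vasectomized-mated array. Its 3' probe (chr11:102716772-102716831) had 11.7 (normal-mated) and 34.0 (vasectomized-mated), against 26.0 (not mated), and was 2.22-fold lower on the normal-mated array and 1.30-fold higher on the vasectomized-mated array. Fzd8 had 13.4 on the normal-mated array, against 11.4 on the not mated array, and on the vasectomized-mated array it was not well above background, or at least 5.55-fold lower than on the not mated array. It was at least 6.56-fold higher on the normal-mated than on the vasectomized-mated array. With normexp correction neither Fzd8 bound passed 2-fold. A 3' probe of Fzd8 had 7.85 (normal-mated) and 6.48 (vasectomized-mated), against 3.44 (not mated), or 2.28-fold (normal-mated) and 1.88-fold (vasectomized-mated) higher. For Fzd7, Fzd2 and Fzd8 the direction after mating with vasectomized males therefore differed between probes.

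Between the mated arrays, Fzd1, Fzd4 and Fzd9 were lower and Fzd5 and Fzd8 higher on the normal-mated array. Fzd1 had 208 on the normal-mated array, against 522 on the vasectomized-mated and 304 on the not mated array, so that it was 2.51-fold lower on the normal-mated array. Fzd4, the receptor for norrin in the retinal vasculature, had 49.1 (normal-mated), against 100 (vasectomized-mated) and 61.8 (not mated), or 2.04-fold lower on the normal-mated array, just past the threshold. Fzd9 had 2.01 (normal-mated), against 5.25 (vasectomized-mated) and 3.95 (not mated), or 2.61-fold lower on the normal-mated array. None of the 3 was 2-fold from the not mated array in either mated pool. Fzd5 had 4.15 on the normal-mated array, against 2.78 on the not mated array, and on the vasectomized-mated array it was not well above background. It was thus at least 2.11-fold higher on the normal-mated than on the vasectomized-mated array, which did not pass 2-fold with normexp correction. A probe outside the rule, whose older name now stands for Fzd5, had 5.21 (normal-mated) and 9.42 (vasectomized-mated), against 5.68 (not mated). It was 1.81-fold lower on the normal-mated than on the vasectomized-mated array, so the direction for Fzd5 differed between probes. It was also 1.66-fold higher on the vasectomized-mated than on the not mated array, where the probe within the rule was at least 1.41-fold lower. Fzd3, a planar polarity receptor, had 15.2 (normal-mated) and 19.0 (vasectomized-mated), against 11.8 (not mated), and was within 2-fold in each comparison. Its 5' probe had 4.47 (normal-mated), against 4.35 (not mated). On the vasectomized-mated array that probe was not well above background, or at least 1.92-fold lower than on the not mated array. A probe outside the rule, whose older name now stands for Fzd3, had 29.7 (normal-mated) and 17.9 (vasectomized-mated), against 24.7 (not mated). It was 1.38-fold lower on the vasectomized-mated than on the not mated array, and 1.66-fold higher on the normal-mated than on the vasectomized-mated array. The direction for Fzd3 thus differed between probes.

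The co-receptors Lrp5 and Lrp6, which pass the signal to the cytoplasm beside Frizzled, lay on opposite sides of the not mated array in the normal-mated pool only. Both were lower on the vasectomized-mated array. Lrp5 had 203 on the normal-mated and 42.4 on the vasectomized-mated array, against 99.7 on the not mated array (chr19:3479676-3479736, mm7). It was 2.04-fold higher after mating with normal males and 2.35-fold lower after mating with vasectomized males, and 4.79-fold higher on the normal-mated than on the vasectomized-mated array. Only the last of these passed 2-fold under all 4 scalings other than the spike-in one. Lrp6 had 6.88 (normal-mated) and 12.4 (vasectomized-mated), against 19.1 (not mated), and was 2.78-fold (normal-mated) and 1.55-fold (vasectomized-mated) lower. A probe outside the rule, whose older name now stands for Lrp6, was 1.22-fold (normal-mated) and 1.11-fold (vasectomized-mated) lower. Lgr5, the R-spondin receptor that marks stem cells of several epithelia and is a target of the pathway, had 14.8 (normal-mated) and 13.4 (vasectomized-mated), against 42.7 (not mated) (chr10:114958025-114958084, mm7). It was 2.89-fold (normal-mated) and 3.19-fold (vasectomized-mated) lower, and the normal-mated array differed from the vasectomized-mated one by 0.14 on the log2 scale.

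Of 8 secreted antagonists that could be compared, 5 were lower and 1 was higher on the normal-mated than on the not mated array (62.5% and 12.5%, beside 12.8% lower and 9.55% higher among all genes), with a median log2 ratio of -1.16. Of the same 8, 1 was higher and 3 were lower on the vasectomized-mated than on the not mated array (12.5% and 37.5%, beside 25.5% and 16.3%). For the normal-mated array, under the other scalings 4 or 5 were lower and 1 higher, and the median stayed between -0.95 and -1.69. The 9 stromal markers were lower in 5 and higher in none in the same comparison. Sfrp2, a Frizzled-related protein that binds Wnt ligands, had 37.8 on the normal-mated and 50.3 on the vasectomized-mated array, against 193 on the not mated array (chr3:83878918-83878977, mm7). It was 5.12-fold (normal-mated) and 3.84-fold (vasectomized-mated) lower. Frzb, also called Sfrp3, had 14.8 (normal-mated) and 33.9 (vasectomized-mated), against 78.5 (not mated) (chr2:80256141-80256200, mm7), or 5.30-fold (normal-mated) and 2.31-fold (vasectomized-mated) lower, and was 2.29-fold lower on the normal-mated than on the vasectomized-mated array. Both antagonists were lower on both mated arrays, Frzb to a lesser degree after mating with vasectomized males.

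Sfrp4 and Dkk2 separated the mated arrays. Sfrp4, a stromal Frizzled-related protein of the uterus, had 292 on the normal-mated and 1924 on the vasectomized-mated array, against 656 on the not mated array (chr13:18999998-19000057, mm7). It was 2.25-fold lower after mating with normal males, 2.93-fold higher after mating with vasectomized males, and 6.60-fold lower on the normal-mated than on the vasectomized-mated array. Dkk2, a Dickkopf protein that binds Lrp5 and Lrp6, had 18.4 (normal-mated) and 84.5 (vasectomized-mated), against 65.0 (not mated) (chr3:131976322-131976381, mm7). It was 3.53-fold lower after mating with normal males, 1.30-fold higher after mating with vasectomized males, and 4.58-fold lower on the normal-mated than on the vasectomized-mated array. The stromal markers ran alongside: all but 1 of the 9 were at least 2-fold lower on the normal-mated than on the vasectomized-mated array, with a median log2 ratio of -2.16. Their part in the Sfrp4 and Dkk2 values was not tested.

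Dkk3 was the 1 antagonist at least 2-fold higher on the normal-mated than on the not mated array. It had 491 on the normal-mated and 248 on the vasectomized-mated array, against 158 on the not mated array (chr7:108032840-108032899, mm7), or 3.10-fold (normal-mated) and 1.57-fold (vasectomized-mated) higher. Dkk3 is a divergent Dickkopf protein that does not bind Lrp6 in the way Dkk1 does. Wif1, the Wnt inhibitory factor, had 15.0 on the normal-mated array, against 33.2 on the not mated array, and on the vasectomized-mated array it was not well above background. It was 2.21-fold lower on the normal-mated and at least 16.8-fold lower on the vasectomized-mated array, with neither passing 2-fold under normexp correction. Between the mated arrays it was at least 7.62-fold higher on the normal-mated one, which did not pass 2-fold under normexp correction either. Sfrp1 had 90.5 (normal-mated) and 86.9 (vasectomized-mated), against 95.8 (not mated), and Sfrp5 had 2.77 (normal-mated) and 3.35 (vasectomized-mated), against 2.03 (not mated), so that both stayed within 2-fold in each comparison.

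Of the 3 nuclear and feedback genes, Lef1 alone was at least 2-fold lower on the normal-mated array and all 3 were on the vasectomized-mated array, where normexp correction left Lef1 alone. Of all genes, 12.8% were lower on the normal-mated and 16.3% on the vasectomized-mated array. Lef1, a nuclear partner of beta-catenin, had 7.61 on the normal-mated and 9.10 on the vasectomized-mated array, against 58.5 on the not mated array (chr3:131060609-131060668, mm7). It was 7.70-fold (normal-mated) and 6.43-fold (vasectomized-mated) lower, and a further probe had 3.17 (normal-mated) and 6.29 (vasectomized-mated), against 34.8 (not mated), with log2 ratios of -3.46 (normal-mated) and -2.47 (vasectomized-mated). Neither probe was 2-fold apart between the mated arrays. Axin2, a feedback inhibitor that is widely read as a target of beta-catenin, had 14.3 (normal-mated) and 10.7 (vasectomized-mated), against 26.3 (not mated), or 1.84-fold (normal-mated) and 2.46-fold (vasectomized-mated) lower. Tcf7, the partner of beta-catenin best known from T cells, had 17.8 (normal-mated) and 12.4 (vasectomized-mated), against 32.5 (not mated), or 1.83-fold (normal-mated) and 2.63-fold (vasectomized-mated) lower. A 5' probe of Tcf7 had 4.30 (normal-mated), against 8.39 (not mated), and on the vasectomized-mated array it was not well above background, or at least 4.26-fold lower. Of the 3, Lef1 kept over 2-fold on both mated arrays under every scaling tried.

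Lef1 and Tcf7 are also expressed by T cells. The 9 T cell markers summed to 80.8 on the normal-mated and 125 on the vasectomized-mated array, against 93.7 on the not mated array. On the normal-mated array 4 of the 9 were at least 2-fold lower than on the not mated array and none higher, and on the vasectomized-mated array 1 was higher and none lower. The 4 lower ones were Cd2, Cd3g, Cd8a and Il7r, and the higher one was Cd3d. Among the parts of the T cell receptor complex, Cd3g had 1.49 (normal-mated) and 6.31 (vasectomized-mated), against 9.14 (not mated), and Cd3d had 5.36 (normal-mated) and 29.7 (vasectomized-mated), against 10.1 (not mated). Cd3e had 2.83 (normal-mated) and 2.73 (vasectomized-mated), against 2.81 (not mated). On the normal-mated array Cd3g and, by under 2-fold, Cd3d were thus lower than on the not mated array, and Cd3e was near it. Only on the vasectomized-mated array did Cd3g and Cd3d lie on opposite sides of the not mated array. The part of T cells in the Lef1 and Tcf7 values was not tested.

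Lef1 has 4 promoter windows in the table. The most upstream and the most downstream are shown because Lef1 had the lowest ratio of the members measured on all 3 arrays, and because they differ in the motif. They lie on the plus strand (RefSeq, GRCm38.p6) at chr3:131110047-131110346 for the upstream start and at chr3:131156044-131156343 for the downstream start, with capitals as above. The window of Frzb lies on the minus strand at chr2:80447347-80447646. Frzb was lower on both mated arrays, though on the vasectomized-mated array not past 2-fold under normexp correction.
Lef1, upstream start: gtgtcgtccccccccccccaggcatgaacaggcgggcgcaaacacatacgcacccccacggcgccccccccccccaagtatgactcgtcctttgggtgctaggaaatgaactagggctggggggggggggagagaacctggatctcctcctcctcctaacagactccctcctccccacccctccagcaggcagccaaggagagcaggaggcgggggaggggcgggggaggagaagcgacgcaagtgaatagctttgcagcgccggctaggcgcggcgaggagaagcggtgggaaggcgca
Lef1, downstream start: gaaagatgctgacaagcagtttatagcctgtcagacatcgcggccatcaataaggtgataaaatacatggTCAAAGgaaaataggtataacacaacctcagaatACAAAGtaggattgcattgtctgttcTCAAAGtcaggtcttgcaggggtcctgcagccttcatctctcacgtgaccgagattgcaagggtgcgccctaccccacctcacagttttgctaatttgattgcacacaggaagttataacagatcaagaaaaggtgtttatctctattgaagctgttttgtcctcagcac
Frzb: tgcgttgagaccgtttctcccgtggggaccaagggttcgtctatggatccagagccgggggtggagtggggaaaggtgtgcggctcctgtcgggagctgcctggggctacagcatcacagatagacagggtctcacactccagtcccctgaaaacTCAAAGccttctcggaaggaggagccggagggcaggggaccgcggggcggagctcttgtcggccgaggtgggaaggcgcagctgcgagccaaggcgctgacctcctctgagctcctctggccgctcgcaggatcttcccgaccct
The most downstream Lef1 window held 3 matches to the motif core. The other Lef1 windows held none, including those not shown, at chr3:131110073-131110372 and chr3:131112541-131112840. The Frzb window held 1. Windows of Sfrp2, Fzd10 and Wif1, which were also lower on both mated arrays, held none. The arrays do not tell which start was used.

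A wider set of 89 pathway genes in 8 lists was taken from outside the members. On the normal-mated array, 4 were higher and 8 lower than on the not mated array of 84 compared (4.76% and 9.52%, beside 9.55% and 12.8% of all genes), with a median log2 ratio of -0.17. On the vasectomized-mated array, 16 were higher and 21 lower of 85 (18.8% and 24.7%, beside 25.5% and 16.3% of all genes), with a median of -0.06. Between the mated arrays, 16 were higher and 15 lower on the normal-mated array of 86 (18.6% and 17.4%, beside 14.1% and 26.8% of all genes). Rspo4, Musk and Sostdc1 were not well above background on any array.

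R-spondins amplify Wnt signals through Lgr receptors by removing the ligases Rnf43 and Znrf3 that clear Frizzled. Of this list, none was higher and 1 lower on the normal-mated array than on the not mated array (6 compared), and 3 were higher and none lower on the vasectomized-mated array (7 compared). On the normal-mated array 16.7% were thus lower, beside 12.8% of all genes. On the vasectomized-mated array 42.9% were higher, beside 25.5% of all genes. Rspo1 had 1987 on the normal-mated and 9432 on the vasectomized-mated array, against 2032 on the not mated array, with log2 ratios of -0.03 (normal-mated) and 2.21 (vasectomized-mated). Lgr4, an R-spondin receptor, had 133 (normal-mated) and 371 (vasectomized-mated), against 94.9 (not mated), at its brightest probe, with a log2 ratio of 1.97 on the vasectomized-mated array, while the lowest of its probes gave -0.22. Notum, a secreted enzyme that inactivates Wnt by removing its lipid and is counted here among the other secreted antagonists and targets, had 10.6 (normal-mated) and 14.2 (vasectomized-mated), against 29.7 (not mated), with log2 ratios of -1.49 (normal-mated) and -1.07 (vasectomized-mated). Rspo1 was thus higher on the vasectomized-mated array, and Notum was lower on both mated arrays.

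Of 20 genes of the Dishevelled proteins and the destruction complex, none was higher and 1 lower on the normal-mated array, and 1 was higher and 8 lower on the vasectomized-mated array, both against the not mated array. In the first case 5.0% were lower, beside 12.8% of all genes. In the second case 5.0% were higher and 40.0% lower, beside 25.5% and 16.3% of all genes. The lower ones in the second case included Btrc, the ubiquitin ligase adaptor for beta-catenin, with 14.5 on the normal-mated and 4.93 on the vasectomized-mated array, against 18.9 on the not mated array. The 1 lower on the normal-mated array was Nkd2, a Dishevelled inhibitor, with 45.4 (normal-mated) and 151 (vasectomized-mated), against 102 (not mated). Frat2, a binder of Gsk3, had 153 (normal-mated) and 57.6 (vasectomized-mated), against 196 (not mated). Both Btrc and Frat2 were thus low on the vasectomized-mated array. Gsk3a, a kinase of the complex, had 14.3 (normal-mated) and 4.24 (vasectomized-mated), against 14.4 (not mated). Of 15 catenin and nuclear complex genes, none differed on the normal-mated array. On the vasectomized-mated array 3 were higher and 5 lower (20.0% and 33.3%, beside 25.5% and 16.3% of all genes). Ctnnb1, which encodes beta-catenin, had 1746 (normal-mated) and 508 (vasectomized-mated), against 1294 (not mated), at its brightest probe. Its log2 ratio between the mated arrays was 1.78 there and -0.97 at the lowest of its probes, so its probes disagreed in sign. Tle4, a co-repressor of the Tcf factors, had 212 (normal-mated) and 1013 (vasectomized-mated), against 204 (not mated).

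Of 12 planar polarity genes none was higher and 3 were lower on the normal-mated array, while none was higher and 3 lower on the vasectomized-mated array (11 compared), against the not mated array. The lower ones were 25.0% on the normal-mated array, beside 12.8% of all genes. They were 27.3% on the vasectomized-mated array, beside 16.3% of all genes. Prickle1 had 211 on the normal-mated and 697 on the vasectomized-mated array, against 594 on the not mated array. Daam2, a formin downstream of Dishevelled, had 4.70 (normal-mated) and 16.2 (vasectomized-mated), against 16.5 (not mated). Vangl1, a membrane protein of the polarity complex, had 511 (normal-mated) and 113 (vasectomized-mated), against 576 (not mated). Its further probe gave a log2 ratio of 0.04 between the mated arrays and -0.08 for vasectomized-mated versus not mated. Celsr2, a polarity cadherin, had 92.5 (normal-mated) and 31.5 (vasectomized-mated), against 99.2 (not mated). Prickle1 and Daam2 were thus low on the normal-mated array, and Celsr2 on the vasectomized-mated array, where Vangl1 was low at 1 of its 2 probes.

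Of 21 genes often used as readouts of the pathway, 3 were higher and 3 lower on the normal-mated array, and 7 higher and 3 lower on the vasectomized-mated array, against the not mated array. These are 14.3% and 14.3% on the normal-mated array, beside 9.55% and 12.8% of all genes. On the vasectomized-mated array they are 33.3% and 14.3%, beside 25.5% and 16.3%, so the shares were near those of all genes. Sp5, a target of beta-catenin, had 98.9 on the normal-mated and 81.1 on the vasectomized-mated array, against 40.5 on the not mated array. Foxa2, a gland factor of the uterus, had 931 (normal-mated) and 1020 (vasectomized-mated), against 296 (not mated), and Sox9 had 259 (normal-mated) and 413 (vasectomized-mated), against 127 (not mated). Myc had 149 (normal-mated) and 644 (vasectomized-mated), against 400 (not mated), with log2 ratios of -1.43 (normal-mated) and 0.68 (vasectomized-mated). Msx1, a homeobox gene of the uterine epithelium, had 474 (normal-mated) and 97.8 (vasectomized-mated), against 691 (not mated). Id2, an inhibitor of helix-loop-helix factors, had 788 (normal-mated) and 4348 (vasectomized-mated), against 1391 (not mated), at its brightest probe. Its log2 ratio between the mated arrays was -2.46 there and -0.96 at its other probe, which did not pass 2-fold. Ccn5 had 2.20 on the normal-mated array, a log2 ratio of -2.33 to the vasectomized-mated array, and in not mated females it was not well above background. The readouts thus did not share a direction. Sp5 was 2.44-fold (normal-mated) and 2.00-fold (vasectomized-mated) higher than on the not mated array, the second right at the threshold. Lef1 and Lgr5 were at least 2-fold lower on both mated arrays, with Lgr5 not past 2-fold on the vasectomized-mated array under normexp correction.

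**Figure D4:**
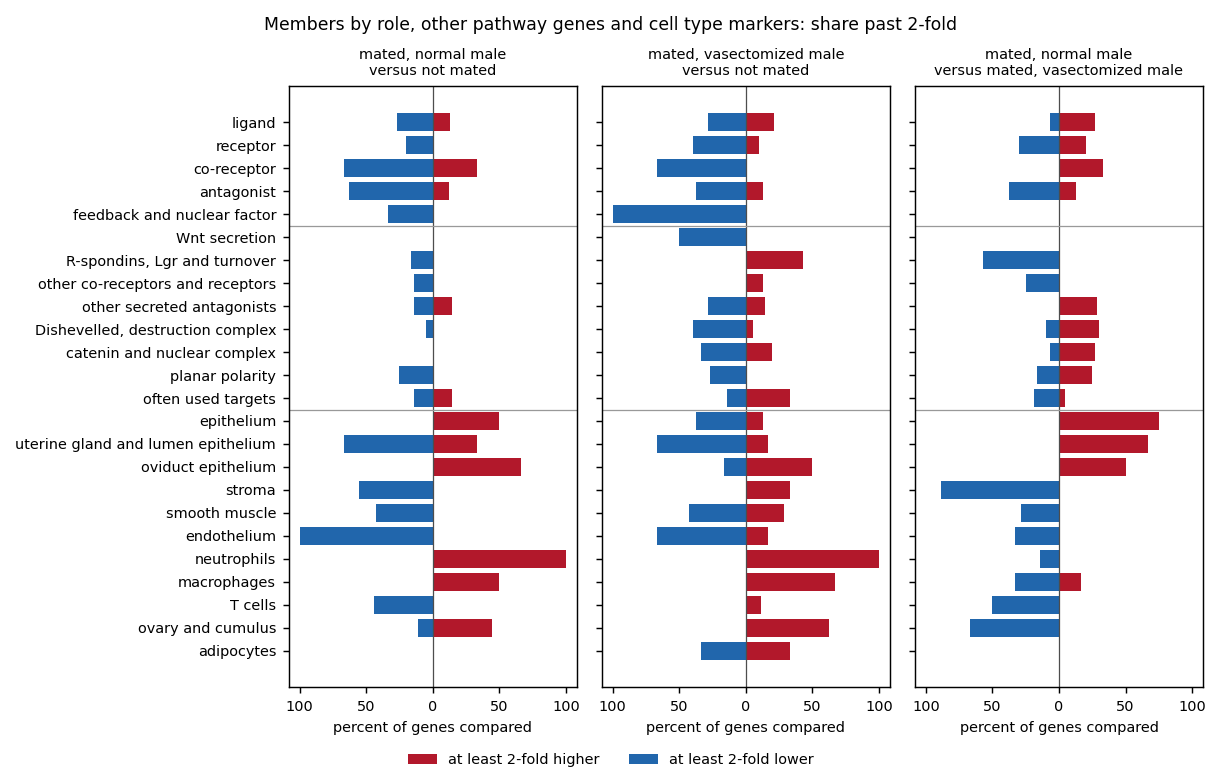
Percent of the genes compared (horizontal axis) that were at least 2-fold higher (red, to the right) or lower (blue, to the left) in each member role, pathway list and cell type marker list, in the 3 comparisons. Antagonists lie mostly to the left for normal-mated versus not mated, and all 3 feedback and nuclear genes to the left for vasectomized-mated versus not mated.

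Of the other lists, the 2 genes of Wnt secretion did not differ on the normal-mated array, and 1, Porcn, named here after its values were seen, was lower on the vasectomized-mated array. Porcn adds the lipid to Wnt ligands and had 125 on the normal-mated and 72.7 on the vasectomized-mated array, against 220 on the not mated array. Of the further co-receptors and alternative receptors 1 of 7 was lower on the normal-mated array and 1 of 8 higher on the vasectomized-mated array. Gpc3, a glypican, had 95.5 (normal-mated) and 1071 (vasectomized-mated), against 205 (not mated), and was the gene called in both cases, on opposite sides. Of the other secreted antagonists, 1 was higher and 1 lower of 7 on the normal-mated array, and 1 higher and 2 lower of 7 on the vasectomized-mated array. Dkkl1, a Dickkopf-like protein, had 329 (normal-mated) and 154 (vasectomized-mated), against 40.2 (not mated), and was the higher one in both. Whether Dkkl1 acts as a Wnt antagonist in this tissue was not tested. Beside the counts of these short lists, 9.55% of all genes were higher and 12.8% lower on the normal-mated array. On the vasectomized-mated array 25.5% of all genes were higher and 16.3% lower.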

How the data were processed

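Total RNA was labelled with Cy3 and hybridised to 3 Agilent arrays, 1 per group, per the labels. The authors deposited scanner intensities that Agilent Feature Extraction had corrected for background within each array. No scaling between arrays is recorded. The software version is 10.5.1.1 per the file headers and 9.5.3 per the submitters' processing notes. Probe coordinates are on mm7, per the file headers.

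The deposited intensities were turned into log2 values, minus the array's 75th percentile over probes other than controls, averaging the spots of a probe and leaving out outlier flags (R 4.3.3, limma 3.58.1, Python 3.11.15, pandas 2.3.3). A gene's value comes from its brightest probe by mean signal, preferring those well above background. Names were updated through RefSeq (GRCm38.p6). The 3 probes whose older names are now synonyms of members fall outside the rule and were not used in any count. The script was tested on simulated data.

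Members, lists and thresholds were chosen with earlier results of these data known. All members are named. Values in each array are given for members past 2-fold, other probes where they differ in sign or by over 2-fold, and up to 5 other pathway genes per comparison and direction by size. Alternatives changed the background correction, the scaling, the filter on dim probes and the choice of probe.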

Additional observations from a re-analysis of the deposited data

How the results depend on the processing

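No paired analysis was possible because each group is 1 array, and for the same reason no replicate could be left out. Against the not mated array, members higher on the normal-mated array were 4, and 2 with normexp correction or spike-in scaling. Members higher on the vasectomized-mated array were 5, against 8 with normexp correction, 0 with spike-in scaling, 8 with no filter on dim probes, and 3 with the median over probes or with every probe past 2-fold. Members lower there were 16, against 8 with normexp correction and 37 with spike-in scaling. Between the mated arrays, members higher on the normal-mated array were 8, against 5 with normexp correction, 34 with spike-in scaling and 4 with genes well above background on both arrays alone. Members lower were 7, against 0 with spike-in scaling and 12 with no filter. In each comparison spike-in scaling moved the median of all genes the same way as that of the members. Its counts alone therefore do not set the members apart. On the vasectomized-mated array versus the not mated array, the log2 ratio of Fzd2 turned to 0.38 and that of Fzd8 to 0.91 at the 3' probe, chosen after seeing the data, and that of Fzd7 to -0.16 with the median over probes. Spike-in scaling turned Fzd7 to -1.47, Sfrp4 to -1.29, Wnt2 to -1.27 and Wnt5b to -1.35 there, and between the mated arrays Dkk2 to 0.11, Frzb to 1.11, Fzd1 to 0.98, Fzd4 to 1.28, Fzd9 to 0.92 and Wnt2 to 0.91. Over all genes, normexp correction gave 1368 higher and 933 lower on the normal-mated array, against 1894 and 2547 with the main scaling, and 5769 and 1717 on the vasectomized-mated array, against 4989 and 3193. The cause of these changes was not tested.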

Other observations

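Markers of white blood cells differed between the pools. All 7 neutrophil markers compared were at least 2-fold higher on each mated array than on the not mated array, with a median log2 ratio of 3.47 on the normal-mated and 3.71 on the vasectomized-mated array. Their summed scaled signal was 6026 (normal-mated) and 8697 (vasectomized-mated), against 31.2 (not mated). Macrophage markers were higher in 3 of 6 on the normal-mated array and in 4 of 6 on the vasectomized-mated array, and lower in none.

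Uterine gland and lumen markers were higher in 2 and lower in 4 of 6 on the normal-mated array, and higher in 1 and lower in 4 on the vasectomized-mated array, against the not mated array. Prss28, a serine protease of uterine glands, had a scaled signal of 9.08 on the normal-mated array, against 5581 on the not mated array, and on the vasectomized-mated array it was not well above background. Oviduct markers were higher in 4 of 6 and lower in none on the normal-mated array, and higher in 3 and lower in 1 on the vasectomized-mated array. Epithelial markers were higher in 4 of 8 on the normal-mated array, and higher in 1 and lower in 3 on the vasectomized-mated array. Smooth muscle markers were lower in 3 of 7 on each mated array, with 2 higher on the vasectomized-mated array. Endothelial markers were lower in all 6 on the normal-mated array, and lower in 4 and higher in 1 on the vasectomized-mated array. Ovary and cumulus markers were higher in 4 and lower in 1 of 9 on the normal-mated array, and higher in 5 of 8 on the vasectomized-mated array. Adipocyte markers did not pass 2-fold on the normal-mated array, and on the vasectomized-mated array 1 was higher and 1 lower of 3. The part of these cell types in the members' values was not tested.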
